A study of Homo sapiens with 12 samples.

Results

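The genes described here are 8 human genes of programmed cell death whose transcripts are known to be raised by interferon or to act in death pathways that interferon touches. They are TNFSF10, XAF1, CASP1, CASP4, CASP8, BCL2L11, PMAIP1 and MLKL. They were picked by symbol, 8 of the 25268 gene symbols measured, with earlier results of these data known. All 8 were found in the table of values. The cells were HEK293, an established human embryonic kidney line, transfected with 2 µg of a plasmid for His-HA-tagged RBMX or, as control, with the mock empty vector, and harvested 48 h later. RBMX is an RNA-binding protein of the nucleus that takes part in splicing. Each vector was given to 3 cultures. Every culture gave a total RNA library and a library of polysomal RNA, which sediments with several ribosomes in a sucrose gradient, so that there were 12 libraries in 4 groups of 3. By the methods of the study total RNA was pooled from the fractions of the gradient, so that the 2 libraries of a culture would share a lysate, but the labels speak of separate dishes for total and polysomal RNA. The plasmid was expressed transiently, so that a culture mixes transfected and untransfected cells. A level in such a culture averages over its cells, and more cells with a transcript and more transcript per cell cannot be told apart.

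Interferons are secreted proteins that switch on a large set of genes through STAT and IRF transcription factors, most of them antiviral. Part of that set makes a cell easier to kill. TNFSF10 encodes TRAIL, a ligand that binds death receptors and so activates the initiator caspase CASP8. XAF1 antagonises XIAP, an inhibitor of caspases. CASP1 and CASP4 are inflammatory caspases that cut gasdermin D, the pore protein of pyroptosis. BCL2L11 (BIM) and PMAIP1 (NOXA) are BH3-only proteins, which set off the mitochondrial route to apoptosis. MLKL is the pseudokinase that ruptures the membrane in necroptosis once RIPK3 has phosphorylated it.

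On GRCh38 (GENCODE release 29) TNFSF10 is at chr3:172505508-172523507 on the minus strand, XAF1 at chr17:6755447-6775647 on the plus strand and MLKL at chr16:74671855-74700960 on the minus strand. The inflammatory caspases are neighbours on the minus strand of chromosome 11, CASP1 at chr11:105025443-105035250 and CASP4 at chr11:104942866-104969436. CASP8 is at chr2:201233443-201287711 and BCL2L11 at chr2:111119378-111168447, both on the plus strand, and PMAIP1 is at chr18:59899948-59904306, also on the plus strand. Reads of some of these genes could be shared with others, since no source used here states that strand was used in counting. The exons of XAF1 overlap 2535 bases of PRAL on the opposite strand, and those of BCL2L11 overlap 727 bases of MIR4435-2HG on the opposite strand. Coding sequence of CASP1 matched CARD16 over 291 bases at 97.3% identity and CARD17 over 330 bases at 90.9% identity. CASP4 matched CASP5 over 1134 bases at 85.0% identity.

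The promoters were searched for the letters that interferon-activated factors bind, because the members differ in whether they hold them. The windows are those of RefSeq on GRCh38.p14, from 250 bases before to 50 bases after the start, and 7 of the 8 members were matched by symbol, CASP1 being the other. The first motif was GAAANNGAAA, the core of an interferon-stimulated response element (ISRE), with its reverse complement TTTCNNTTTC. It was present in 3.65% of 27305 promoters, and in 14 of the 25 matched promoters among 31 interferon-stimulated genes. The second was TTCNNNGAA, the gamma-activated sequence (GAS), which reads the same on both strands and was present in 7.88% of promoters. The matches found in members are shown on the strand of the gene, 5′ to 3′, with the motif in capitals. They lie in the windows chr3:172523598-172523627, chr2:201233450-201233479 and chr2:201233253-201233282, in that order.
TNFSF10 ISRE-like: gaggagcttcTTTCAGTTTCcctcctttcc
CASP8 ISRE-like: gagtttttggTTTCTGTTTCaccttgtgtc
CASP8 GAS: aaaattatttTTCCAAGAAgaaaataaacc
Counted from the RefSeq start, the first base of the TNFSF10 match is at -187, and those of the CASP8 matches are at -3 and -200. For these genes the RefSeq start differs from the GENCODE start given above. XAF1, CASP4, BCL2L11, PMAIP1 and MLKL had no match in this window. A match describes letters only, and no binding was measured.

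The values are listed as FPKM, by definition counts of sequenced fragments divided by transcript length and by the mapped total of each library. How these libraries were scaled is not settled. Summed over all genes they ran from 817528 FPKM in control polysomal replicate 1 to 1903320 FPKM in control total replicate 3. Tests used limma on the log2(FPKM + 1) scale over the 14676 genes that averaged 0.5 FPKM or more, and a log2 difference on this scale understates the change of weakly expressed genes. RBMX itself was at 108 to 147 FPKM in control total RNA and at 1460 to 2073 FPKM in RBMX total RNA. In polysomal RNA it was at 87.4 to 148 and at 1072 to 1328 FPKM, so that every library matched the vector in its label. These levels do not check which libraries are total and which polysomal. All 6 kidney and neurofilament markers listed for HEK293 were detected in every library, whereas 1 of 7 leukocyte markers and 1 of 4 fibroblast markers reached an FPKM of 1. The fibroblast marker that did, COL1A1, was higher with RBMX without overlap, by 0.43 (SE 0.16, limma adjusted p = 0.254) in total RNA. In polysomal RNA it was higher without overlap by 0.44 (SE 0.17, limma adjusted p = 0.418). COL1A2, too low to be tested, was at 0 in every control library and between 0.00261 and 0.0189 FPKM in RBMX libraries. COL3A1 and DCN overlapped. The 4 fibroblast markers summed to 3.19 to 5.23 FPKM in control and 5.52 to 6.51 FPKM in RBMX total libraries. In polysomal libraries these sums were 4.01 to 6.01 and 6.59 to 8.66 FPKM. The leukocyte markers summed to 1.48 to 2.16 FPKM in control and 1.82 to 2.73 FPKM in RBMX total libraries. In polysomal RNA they summed to 1.41 to 1.65 FPKM in control and 1.85 to 2.37 FPKM in RBMX libraries, without overlap. ITGAM, too low to be tested, was higher with RBMX without overlap in both fractions, and CD14 in polysomal RNA. The other leukocyte markers overlapped. The part of these markers in the results was not tested. Control replicate 3 stood apart in both fractions, with 671 and 604 FPKM of GAPDH against 1131 to 1323 in the other 10 libraries. RBMX replicate 3 stood apart in the genes described below. Results that passed or failed the test depending on these libraries are given with and without them.

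TNFSF10, the ligand, was close to absent in control cells. Its total RNA level was 0.100, 0.166 and 0.0982 FPKM in control replicates 1 to 3 and 1.79, 2.14 and 0.290 FPKM in RBMX replicates 1 to 3. In polysomal RNA it was 0.141, 0.131 and 0.129 FPKM in control cells and 1.46, 1.18 and 0.322 FPKM in RBMX cells. Every RBMX library exceeded every control library, but RBMX replicate 3 lay much nearer to the controls than to the other RBMX replicates. The mean was 0.121 ± 0.0384 FPKM in control total RNA and 1.41 ± 0.983 FPKM in RBMX total RNA (SD, n = 3), a ratio of 11.6. The log2 difference was 1.00 (SE 0.34, 95% interval 0.14 to 1.86) for total and 0.76 (SE 0.23) for polysomal RNA. With a pseudocount of 0.1 in place of 1 it was 2.43 and 2.02. It did not pass the test in either fraction (limma, Benjamini-Hochberg adjusted p = 0.225 and 0.400). TNFSF10 entered the test only through the RBMX libraries, because its control level is under the minimum of 0.5 FPKM.

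XAF1 differed most between the vectors. In total RNA it was at 0.841, 0.823 and 0.398 FPKM in control replicates and at 32.7, 35.01 and 2.60 FPKM in RBMX replicates. The polysomal levels were 0.857, 0.818 and 0.535 FPKM in control cells and 32.0, 32.3 and 2.60 FPKM in RBMX cells. Again the groups did not overlap, and again RBMX replicate 3 was the lowest RBMX library in both fractions. The means in total RNA were 0.687 ± 0.251 and 23.4 ± 18.1 FPKM (SD, n = 3), a ratio of 34.1, and in polysomal RNA the ratio was 30.3. The log2 differences were 3.29 (SE 0.93, 95% interval 0.96 to 5.62) for total and 3.19 (SE 0.91) for polysomal RNA, with limma adjusted p = 0.189 and 0.400. An SD almost as large as the mean of the RBMX group stands beside these ratios.

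The inflammatory caspases behaved unlike each other. CASP1 was listed at 0, 0 and 0 FPKM in control total RNA and at 0.0228, 0.0257 and 0 FPKM in RBMX total RNA. In polysomal RNA it was listed at 0, 0 and 0.0226 FPKM in control cells and at 0.0164, 0.0478 and 0 FPKM in RBMX cells. It was not tested, and its paralog CARD16, with which it shares sequence, was between 0 and 0.365 FPKM. CASP4, which senses cytosolic lipopolysaccharide, was expressed in every library. Its total RNA level was 5.72, 6.41 and 6.87 FPKM in control cells and 12.5, 14.7 and 7.13 FPKM in RBMX cells. In polysomal RNA CASP4 was at 5.94, 5.80 and 6.42 FPKM in control cells and at 13.1, 10.2 and 7.36 FPKM in RBMX cells. RBMX replicate 3 was just above the highest control library in each fraction. The mean was 6.33 ± 0.577 and 11.4 ± 3.88 FPKM in control and RBMX total RNA (SD, n = 3), and the log2 difference was 0.71 (SE 0.25) and 0.64 (SE 0.20), with limma adjusted p = 0.236 and 0.400. CASP5, the similar paralog of CASP4, was at 0 in 11 of 12 libraries.

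MLKL, the effector of necroptosis, was higher with RBMX by about the same amount in both fractions. Control total RNA held 2.13, 2.44 and 1.68 FPKM and RBMX total RNA 5.70, 5.58 and 2.71 FPKM. Control polysomal RNA held 2.40, 2.61 and 1.93 FPKM and RBMX polysomal RNA 5.68, 6.01 and 2.83 FPKM. The groups did not overlap, with RBMX replicate 3 again the nearest to the controls. The ratio of means was 2.24 for total and 2.09 for polysomal RNA, and the log2 difference was 0.83 (SE 0.26) and 0.77 (SE 0.25), with limma adjusted p = 0.200 and 0.403.

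CASP8, the initiator caspase downstream of death receptors, showed no clear difference between the vectors. It was at 8.25, 7.56 and 7.14 FPKM in control total RNA and at 9.91, 9.14 and 7.46 FPKM in RBMX total RNA. In polysomal RNA the values were 8.21, 7.82 and 5.35 FPKM in control cells and 7.85, 8.76 and 7.92 FPKM in RBMX cells. The groups overlapped in both fractions. The log2 difference of CASP8 was 0.18 (SE 0.11) for total and 0.19 (SE 0.16) for polysomal RNA, with limma adjusted p = 0.443 and 0.622. The polysomal difference rested on control replicate 3, without which it was 0.024 (adjusted p = 0.866).

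The BH3-only genes went the other way or showed no clear difference. BCL2L11 was at 21.5, 22.0 and 22.3 FPKM in control total RNA and at 19.1, 19.0 and 19.4 FPKM in RBMX total RNA. Its polysomal values were 20.6, 20.6 and 21.2 FPKM in control cells and 18.4, 18.7 and 19.2 FPKM in RBMX cells. All RBMX libraries were below all control libraries, and here RBMX replicate 3 lay with the other RBMX replicates. The difference was small, with a ratio of means of 0.873 for total and 0.903 for polysomal RNA. On the log2 scale it was -0.19 (SE 0.046) and -0.14 (SE 0.058), with limma adjusted p = 0.176 and 0.425. The overlapping antisense gene, listed under its older symbol MIR4435-1HG, was between 12.4 and 18.4 FPKM in control total RNA and between 12.8 and 15.1 FPKM in RBMX total RNA.

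PMAIP1, a target of p53 as well as of interferon, was by far the most abundant member. Control total RNA held 573, 519 and 625 FPKM and RBMX total RNA 545, 608 and 482 FPKM, and these groups overlapped. In polysomal RNA the control libraries held 511, 463 and 547 FPKM and the RBMX libraries 441, 368 and 442 FPKM, with every RBMX library below every control library. The log2 difference of PMAIP1 was -0.073 (SE 0.13) for total and -0.28 (SE 0.14) for polysomal RNA, with limma adjusted p = 0.775 and 0.466. Without control replicate 3 the total RNA difference was -0.0067, and without RBMX replicate 3 it was 0.013.

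**Figure D1:**
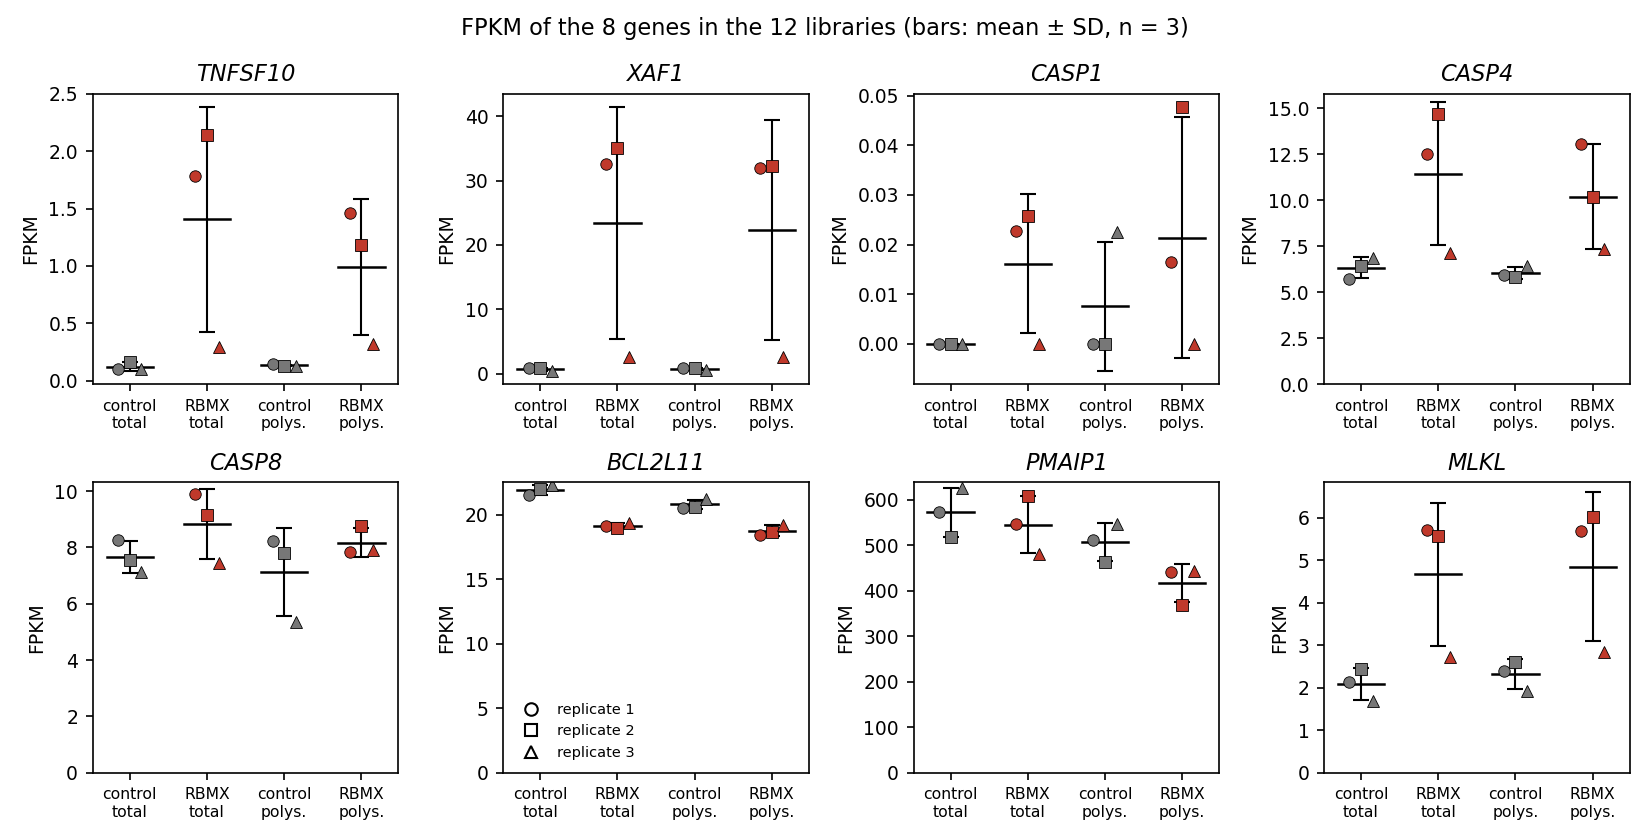
FPKM of each of the 8 genes (vertical axes, linear, a separate scale for each gene) in control and RBMX total and polysomal libraries; symbols mark replicates 1 to 3, horizontal lines the mean of 3 and bars the SD. TNFSF10, XAF1, CASP4 and MLKL were higher in RBMX replicates 1 and 2, with replicate 3 close to the controls, BCL2L11 was lower in all RBMX libraries, and CASP1 stayed under 0.05 FPKM.

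In control total RNA the genes ranked, by mean FPKM, from PMAIP1 (572) through BCL2L11 (21.9), CASP8 (7.65), CASP4 (6.33), MLKL (2.08), XAF1 (0.687) and TNFSF10 (0.121) to CASP1. No 2 neighbours in this order overlapped between control total libraries. In control polysomal RNA the order was the same, and only CASP8 and CASP4 overlapped. In RBMX total RNA XAF1 (23.4) came second, ahead of BCL2L11 (19.2), CASP4 (11.4), CASP8 (8.84), MLKL (4.66) and TNFSF10 (1.41). There the wide range of XAF1 overlapped BCL2L11, CASP4, CASP8 and MLKL, and CASP4 overlapped CASP8. In RBMX total replicate 3 XAF1 (2.60 FPKM) was below BCL2L11, CASP4, CASP8 and MLKL (2.71 FPKM). Its second rank thus rested on replicates 1 and 2.

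Of the 8 members 7 were tested, and 0 passed an adjusted p of 0.05 in total RNA, where 0.164% of all tested genes did (limma, Benjamini-Hochberg). In polysomal RNA 0 members passed, against 0.0477% of all genes. An unadjusted limma p under 0.05 was reached by 5 of 7 in total RNA, against a background of 18.8% of genes, and by 4 of 7 in polysomal RNA, against 11.7%. TNFSF10, XAF1, CASP4 and MLKL were the genes higher with RBMX by this measure in both fractions, and BCL2L11 the one lower, in total RNA. These counts depended on single libraries. Leaving out 1 library gave 2 members in total RNA without control replicate 3, RBMX replicate 1 or RBMX replicate 2, 3 without control replicate 1 or 2, and 6 without RBMX replicate 3. In polysomal RNA it gave 1 member without RBMX replicate 2, 2 without control replicate 1 or RBMX replicate 1, 3 without control replicate 2 or 3, and 4 without RBMX replicate 3. Groups that did not overlap, RBMX higher, were seen for these same 4 of 7 genes in each fraction, where 11.9% of all genes had them in total and 10.0% in polysomal RNA. Groups that did not overlap, RBMX lower, were seen for 1 of 7 in total RNA (background 15.4%) and for 2 of 7, BCL2L11 and PMAIP1, in polysomal RNA (background 12.5%). For a single gene whose 3 and 3 libraries do not overlap, a two-sided exact permutation test gave p = 0.1, the smallest that 3 against 3 allow. It gave 0.3 and 0.4 for CASP8 in total and polysomal RNA and 0.6 for PMAIP1 in total RNA. The median log2 difference over the 7 tested members was 0.71 for total and 0.64 for polysomal RNA, beside a median of 0 over all genes in each. TNFSF10 is in this median and in the counts of higher genes above. Since it was tested only because of its RBMX level, it adds no support to either. All members were chosen with earlier results of these data known. Their counts and median, set beside those of all genes, are therefore descriptions.

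**Figure D2:**
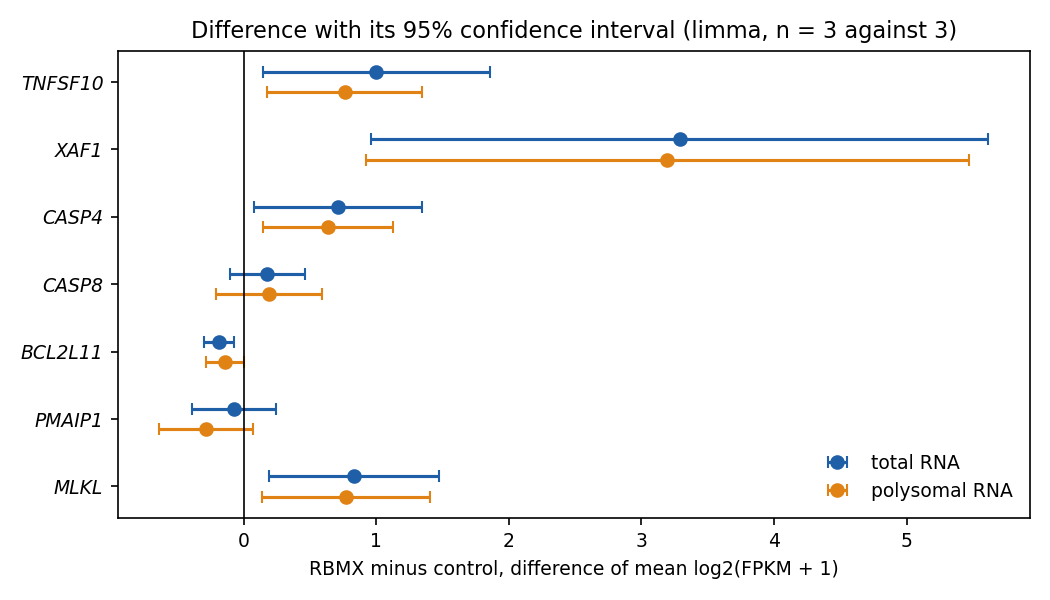
Log2 difference of FPKM + 1, RBMX minus control (horizontal axis), for the 7 tested genes in total and polysomal RNA; points are limma estimates from 3 against 3 libraries and bars their 95% intervals. XAF1 stands at 3.29 and 3.19, TNFSF10, CASP4 and MLKL lie between 0.64 and 1.00, and BCL2L11 lies at -0.19 and -0.14.

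The 4 higher genes shared the way in which the RBMX replicates differed. Relative to the mean of the control total libraries, XAF1 was 47.5, 50.9 and 3.78 times as high in RBMX total replicates 1, 2 and 3. The corresponding ratios were 14.7, 17.6 and 2.39 for TNFSF10, 2.74, 2.68 and 1.30 for MLKL, and 1.97, 2.32 and 1.13 for CASP4. RBMX replicate 3 was thus above the control mean for each of them, and lowest of the RBMX replicates. Polysomal RNA gave the same order of replicate 3 below the others, with ratios of 43.5, 43.9 and 3.54 for XAF1 and of 2.45, 2.60 and 1.22 for MLKL. RBMX itself was far above its control mean in replicate 3 too, by 10.9 times in total RNA, where the highest RBMX replicate had 15.5 times, and by 8.43 times in polysomal RNA, where the highest had 10.4 times. Replicate 3 was thus also the lowest of its group in RBMX, by a smaller margin. Whether the level of RBMX had a part in the difference between replicates was not tested.

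RBMX replicate 3 was singled out because its values in the 4 higher genes lay nearest to the controls. Larger differences without it were therefore fixed in advance, and the fits below are descriptions and no added support. Without RBMX replicate 3, 4 members passed the test in total RNA, where 1.21% of all genes did. TNFSF10 is 1 of these 4, but since it was tested only because of its RBMX level its passing adds nothing to the count. XAF1 rose by 4.38 on the log2 scale (limma adjusted p = 0.00154), TNFSF10 by 1.40 (adjusted p = 0.00384), MLKL by 1.11 (adjusted p = 0.0434) and CASP4 by 0.99 (adjusted p = 0.0477). In polysomal RNA 2 members passed without that replicate, against 0.859% of all genes. These were XAF1, with a log2 difference of 4.26 (adjusted p = 0.00114), and TNFSF10, with 1.03 (adjusted p = 0.00902), whereas MLKL had an adjusted p of 0.0527 and CASP4 of 0.122. Without replicate 3 of both vectors, which also removes the control that stood apart, TNFSF10, XAF1 and MLKL passed in both fractions, and CASP4 had adjusted p = 0.0512 in total and 0.0688 in polysomal RNA. CASP8, BCL2L11 and PMAIP1 passed in none of these fits.

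**Figure D3:**
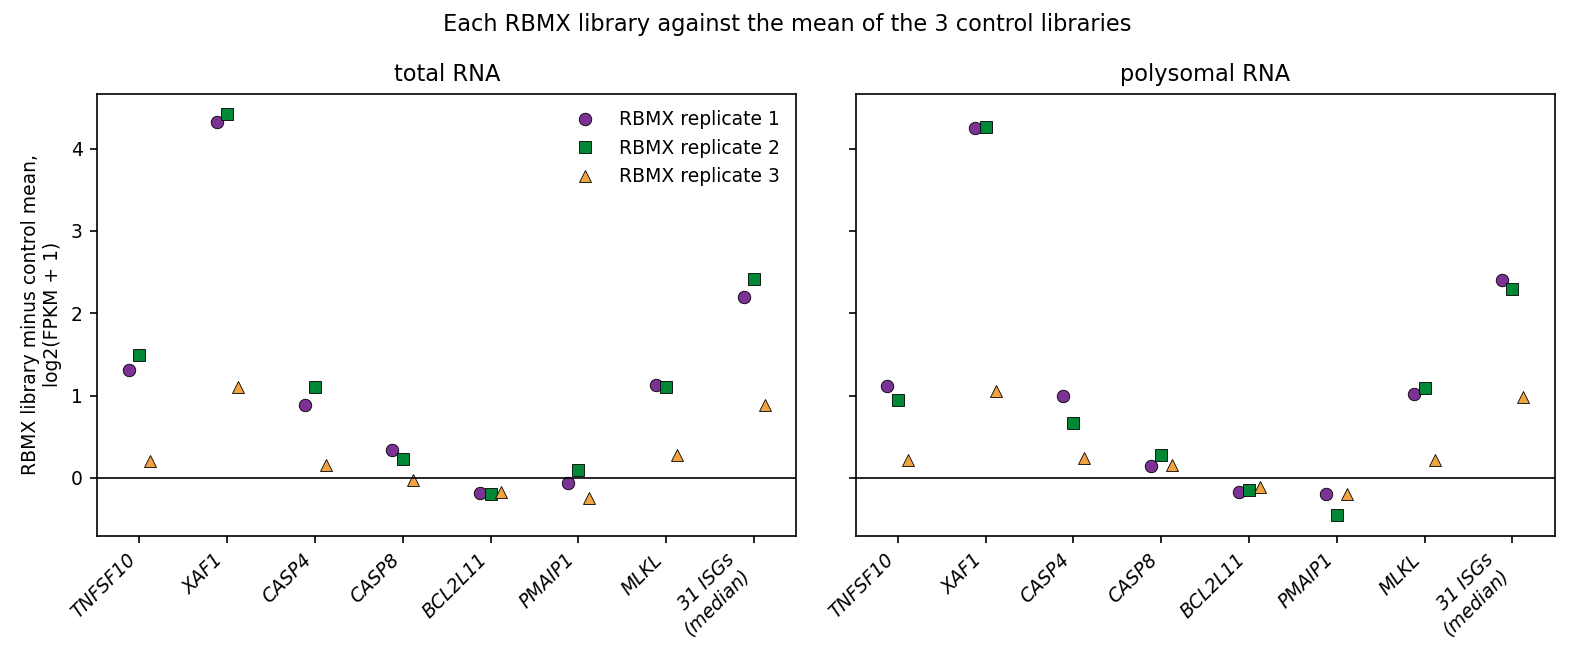
Value of each tested member in each RBMX library minus the mean of the 3 control libraries of the same fraction, in units of log2(FPKM + 1) (vertical axis), for total RNA on the left and polysomal RNA on the right, with the median over 31 interferon-stimulated genes (ISGs) at the right of each panel. For TNFSF10, XAF1, CASP4 and MLKL replicate 3 (triangles) lies below replicates 1 and 2, as does the ISG median, which is 2.42 in replicate 2 and 0.89 in replicate 3 of total RNA.

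The interferon response of these cultures was described with 31 interferon-stimulated genes, a list chosen with earlier results of these data known. All 31 were higher with RBMX, with no overlap between groups, in both fractions, where 11.9% of all genes in total and 10.0% in polysomal RNA were. Of the 31, 0 passed an adjusted p of 0.05 in limma. An unadjusted limma p under 0.05 was reached by 31 of them in total and by 30 in polysomal RNA. Among all genes 18.8% and 11.7% reached it, in either direction. The median log2 difference of the 31 was 1.84 and 1.98. OAS2, which makes the activator of RNase L, differed by 3.64 (SE 0.85) for total and 3.76 (SE 0.81) for polysomal RNA. RSAD2 (viperin) differed by 3.32 (SE 0.85) and 3.48 (SE 0.86). Summed over the list, the control total libraries held 1405, 1558 and 894 FPKM and the RBMX total libraries 7712, 8096 and 2666 FPKM, so that RBMX replicate 3 lay between the groups here as well. Without RBMX replicate 3, 19 of the 31 passed the limma test in total RNA, where 1.21% of all genes did, and 12 passed in polysomal RNA, where 0.859% did. These counts are descriptions too, since that replicate was left out after its low values were seen. IFNB1, the gene for interferon beta, was looked at after its values were seen. It was at 1.22, 0.867 and 0.813 FPKM in control total RNA and at 19.2, 22.1 and 3.19 FPKM in RBMX total RNA, and RBMX replicate 3 was again the lowest of its group.

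The death receptor list, which holds the receptors of TRAIL and their adaptors, had 11 of 13 genes tested. This list and those below were also chosen with earlier results of these data known. With RBMX 6 of these were higher without overlap in each fraction, where 11.9% and 10.0% of all genes were, and 0 were lower, where 15.4% and 12.5% were. None passed the limma test, 6 in total and 5 in polysomal RNA had an unadjusted p under 0.05, and the median log2 difference was 0.21 for total and 0.17 for polysomal RNA. TNFRSF10A, a TRAIL receptor with a death domain, was at 7.79, 7.56 and 5.55 FPKM in control total RNA and at 10.4, 10.4 and 9.89 FPKM in RBMX total RNA. RBMX replicate 3 of TNFRSF10A lay with the other RBMX replicates. Its log2 difference was 0.51 (SE 0.13, adjusted p = 0.176, limma), that of FAS was 0.32 (SE 0.12, adjusted p = 0.238), and in polysomal RNA RIPK1, a kinase of the receptor complex, had 0.37 (SE 0.13, adjusted p = 0.405). TNFRSF10D, a decoy receptor of TRAIL named after its values were seen, overlapped between the vectors, with differences of -0.32 (SE 0.17, adjusted p = 0.366) in total RNA and -0.44 (SE 0.18, adjusted p = 0.425) among polysomal libraries. TNFRSF10C, another decoy receptor, went the other way, higher without overlap by 0.22 (SE 0.057) in total and 0.17 (SE 0.048) in polysomal RNA. TNFRSF10B, another TRAIL receptor with a death domain, overlapped in both fractions, with differences of 0.17 (SE 0.091) and 0.085 (SE 0.087). These too were named after their values were seen.

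In the pyroptosis list, 3 of 13 genes were expressed strongly enough to be tested. GSDMD, the gasdermin that CASP1 and CASP4 cut, was at 3.83, 3.62 and 2.28 FPKM in control total RNA and at 6.80, 6.18 and 4.17 FPKM in RBMX total RNA. These groups did not overlap, and the log2 difference was 0.66 (SE 0.22, limma adjusted p = 0.216) in total and 0.57 (SE 0.16, adjusted p = 0.400) in polysomal RNA. DFNA5 (gasdermin E) and CARD8 overlapped between the vectors. NLRP3, IL1B, CASP5 and the adaptor PYCARD were under the minimum in every library. AIM2, a DNA sensor also under the minimum and picked after its values were seen, was at 0.369, 0.465 and 0.0533 FPKM in RBMX total RNA and between 0.0119 and 0.0465 FPKM in control total RNA.

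Around MLKL, 5 of the 7 listed necroptosis genes were tested. In each fraction 1 of them, RIPK1, was higher without overlap, where 11.9% of all genes were in total and 10.0% in polysomal RNA. Its log2 difference was 0.30 (SE 0.093, limma adjusted p = 0.200) in total RNA. RIPK3, the kinase that activates MLKL, was at 0 in 9 of the 12 libraries and at most at 0.0272 FPKM in the others. ZBP1, an interferon-induced partner of RIPK3, reached at most 0.168 FPKM. The list's median log2 difference was -0.034 for total and 0.030 for polysomal RNA.

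Among the genes around BCL2L11, PMAIP1 and XAF1, differences were small. Of 13 tested BCL2 family genes 2 were higher without overlap in total RNA, a share near the 11.9% of all genes. These were BAK1 by 0.14 (SE 0.058) and BBC3 (PUMA) by 0.12 (SE 0.048). In polysomal RNA 1, MCL1, was higher without overlap, by 0.39 (SE 0.18), where 10.0% of all genes were. The family's median log2 difference was -0.0049 for total and -0.014 for polysomal RNA. Of 5 tested inhibitors of apoptosis 1, XIAP, was lower without overlap in total RNA, where 15.4% of all genes were. Its difference was -0.11 (SE 0.053, limma adjusted p = 0.318). In polysomal RNA 0 of the 5 were lower without overlap, against 12.5% of all genes. Of 9 apoptosome and executioner caspase genes 3 were higher without overlap in total RNA, where 11.9% of all genes were. In that fraction 1, CASP6, was lower without overlap, with a difference of -0.21 (SE 0.061), where 15.4% of all genes were lower. In polysomal RNA 1 was higher and 0 were lower without overlap, against 10.0% and 12.5% of all genes. The median over these 9 was -0.0051 and 0.014. No gene of these 3 lists passed the limma test, with or without RBMX replicate 3, and 3 in total RNA and 0 in polysomal RNA had an unadjusted p under 0.05.

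**Figure D4:**
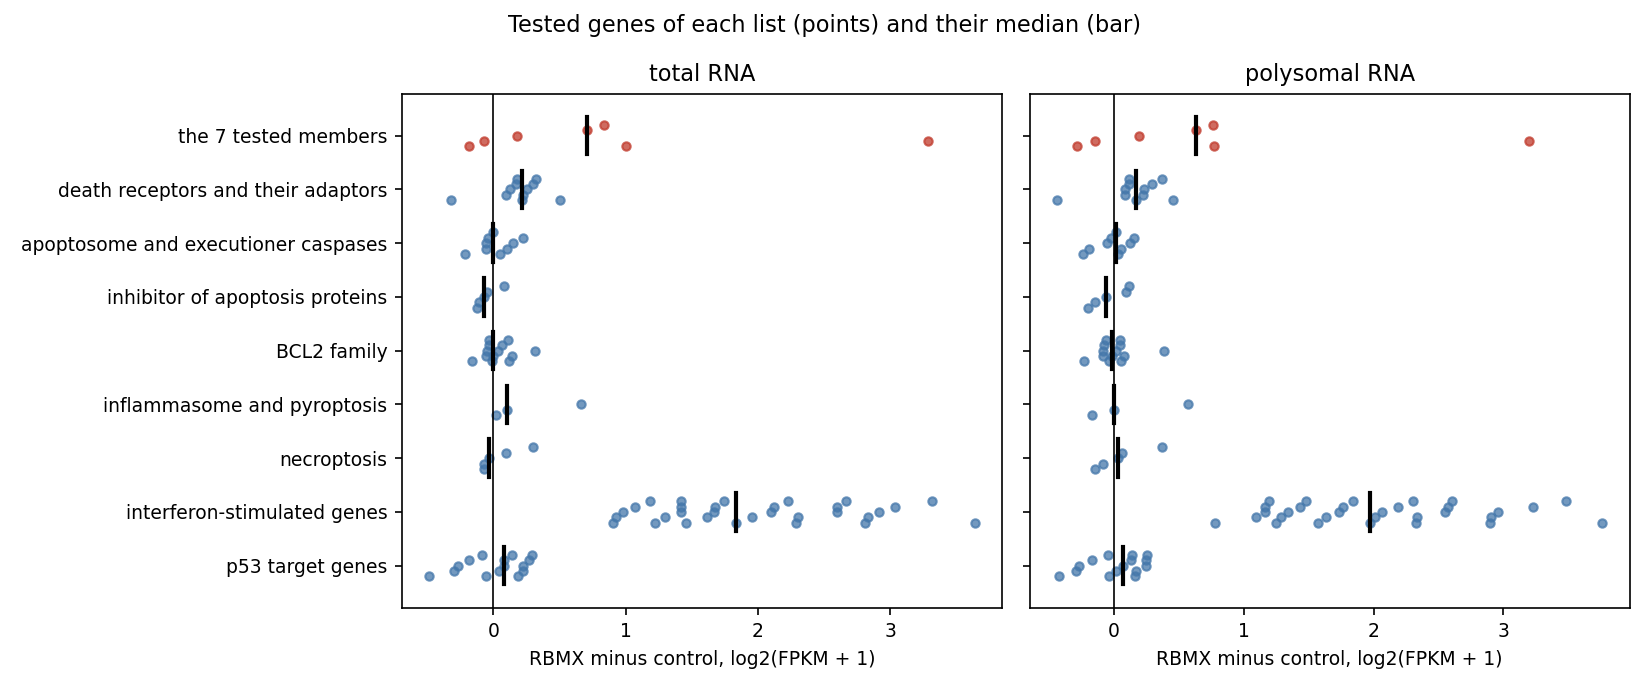
Log2 difference of FPKM + 1, RBMX minus control, (horizontal axes) of every tested gene (points) of the members, in red, and of each gene list, in blue, in total (left) and polysomal RNA (right), with the median as a bar. The 31 interferon-stimulated genes have medians of 1.84 and 1.98, while the medians of the 6 cell death lists and the p53 target list lie between -0.069 and 0.21.

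Polysomal RNA was next compared with total RNA, which asks whether the members were loaded on ribosomes differently. The RBMX effect in polysomal RNA minus that in total RNA was -0.24 (SE 0.45) for TNFSF10, -0.093 (SE 1.39) for XAF1 and -0.21 (SE 0.18) for PMAIP1. For the other 4 tested members it was between -0.075 and 0.045. None of the 7 passed (0 at an unadjusted p under 0.05), where 0.0204% of all genes passed the adjusted threshold and 0.600% the unadjusted one, and all adjusted p were 1.00 (limma). The 95% interval ran from -0.091 to 0.18 for BCL2L11 but from -3.20 to 3.02 for XAF1. This fit leaves out which libraries share a culture, so that the interval of XAF1 also holds its spread between cultures. The ratios of XAF1 within each culture are given below. With the culture as a block, 5 genes in place of 3 passed this test and 0 members did.

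In control cells the 7 members were close to equal in polysomal and total RNA. The log2 difference, polysomal minus total, lay between -0.17 for PMAIP1 and 0.11 for MLKL, and limma adjusted p ranged from 0.785 to 0.996. None of the 7 passed, also at an unadjusted p under 0.05, where 0.0818% of all genes passed the adjusted and 8.04% the unadjusted threshold, and with the culture as a block 6 genes in place of 12 passed and 0 members did. BCL2L11 was lower in all 3 polysomal than in all 3 total control libraries, as 7.31% of all genes were, with a difference of -0.073 (SE 0.050) and an exact permutation p of 0.1. The polysomal level of PMAIP1 was 0.892, 0.894 and 0.875 of the total level in control cultures 1 to 3 and 0.808, 0.605 and 0.919 of it in RBMX cultures 1 to 3. XAF1 had ratios of 1.02, 0.994 and 1.34 in control cultures 1 to 3 and of 0.980, 0.924 and 1.00 in RBMX cultures 1 to 3. The ratio of PMAIP1 was thus lowest in RBMX culture 2, and the ranges of the vectors overlapped.

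Across the 12 libraries some members varied together. On the log2 scale TNFSF10 correlated with CASP4 at 0.983, with XAF1 at 0.979 and with MLKL at 0.954, and XAF1 correlated with MLKL at 0.986 and with BCL2L11 at -0.852 (Pearson's r, n = 12). These are descriptions, because the libraries share vectors and cultures and fall into separate groups. The tested genes most like TNFSF10 were CXCL10 (0.996), RARRES3 (0.995) and CD274 (0.994). For XAF1 they were APOL6 (0.999), APOL1 (0.998) and ISG20 (0.998), and for MLKL BATF2 (0.993), MX1 (0.992) and LAMP3 (0.991). CASP4 was closest to TNFSF10 (0.983), RARRES3 (0.983) and CD274 (0.981). The other tested members had different neighbours, with GUSB (0.917), LRCH2 (0.914) and FRRS1 (0.910) for CASP8, MAGI2 (0.968), CCSER2 (0.966) and ZNF385B (0.964) for BCL2L11, and LETM2 (0.963), C14orf39 (0.953) and YAF2 (0.951) for PMAIP1.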

How the data were processed

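The authors deposited 1 FPKM value for each of 25268 gene symbols in each of the 12 libraries, with replicates not pooled. The submitters' processing notes list CASAVA 1.8, TopHat2 2.0.13, Cufflinks 2.2.1, Cuffnorm and build hg19 without roles, whereas the methods of the study describe trimming, hg38 and DESeq2 on counts. The build and the scaling behind the FPKM values are therefore not settled. Samples were grouped by the labels. Values were set to log2(FPKM + 1), and the 14676 genes averaging 0.5 FPKM or more were fitted with R 4.3.3 and limma 3.58.1 (lmFit, eBayes with trend). The 6 libraries of a fraction gave RBMX against control, the 6 control libraries polysomal against total RNA, and all 12 the difference of the RBMX effects. The p-values were Benjamini-Hochberg adjusted over all 14676 genes with a threshold of 0.05. Fits were tested on simulated data.

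The members and the gene lists were chosen with earlier results of these data known. Genes named from a list are up to 2 per fraction with the largest difference among those without overlap, and 3 most correlated genes are named per member; others were named after their values were seen. A gene that this rule would name is not reported here. By the methods, total and polysomal RNA of a culture came from 1 gradient, which pairs them, but the labels speak of separate dishes, so the pairing is assumed. After subtracting group means, the 2 libraries of a culture correlated across genes (Spearman) at 0.540, 0.689 and 0.774 in control cultures and 0.0906, -0.166 and 0.579 in RBMX cultures, where genes are not replicates. Depth is unknown, since no more than 23.5% of low genes shared 1 step between libraries, so no detection limit is given. Locations and coding sequence came from GENCODE release 29, promoters from RefSeq, with coding sequences aligned by BLAST 2.17.0. Plots used Python 3.11.15 and matplotlib 3.10.9. The alternatives were a pseudocount of 0.1, no filter, 2 rescalings, a block, all 12 libraries in one fit, and leaving out replicates. Leaving out replicate 3 of both vectors, and the lists without RBMX replicate 3, were added after seeing the data.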

Additional observations from a re-analysis of the deposited data

How the results depend on the processing

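No member passed in any comparison with a pseudocount of 0.1, no filter, median-ratio rescaling, quantile normalization, a replicate block or all 12 libraries in one fit. With 1 library left out, 0 to 4 members passed in total RNA and 0 to 2 in polysomal RNA, the highest counts without RBMX replicate 3. That replicate stood apart by its values in these same members. Without replicate 3 of both vectors, chosen after seeing the data, 3 members passed in each fraction.

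Over all genes, 24 passed in total RNA, 7 in polysomal RNA, 3 for the difference of the effects and 12 for polysomal against total control RNA. Without the filter 77 and 31 passed in total and polysomal RNA. All 12 libraries in one fit gave 60, 22 and, for polysomal against total control RNA, 41. With the replicate block 13, 3, 5 and 6 passed in the order above, and the block changed no member's call. Without replicate 3 of both vectors the counts were 306, 348, 14 and 199. Leaving out 1 library gave 19 to 178, 9 to 126, 3 to 7 and 12 to 26. Equal replicate numbers of the vectors were taken to share only a number. Their deviations correlated across genes with -0.0659 to 0.0285 (Pearson) or -0.124 to 0.387 (Spearman), beside 0.00177 to 0.311 (Pearson) for the 2 libraries of a culture.

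Some small differences changed sign. For PMAIP1, quantile normalization gave 0.0096 for the difference of the effects and 0.13 for polysomal against total control RNA. Without replicate 3 of both vectors, PMAIP1 in total RNA was 0.079, and CASP8 was -0.20 for the difference and 0.018 for control loading. With 1 library left out, the difference of the effects ran from -0.64 to 0.030 for TNFSF10, -1.18 to 0.97 for XAF1, -0.36 to 0.12 for CASP4, -0.16 to 0.11 for CASP8 and -0.34 to 0.22 for MLKL. Control loading ran from -0.082 to 0.13 for XAF1 and -0.21 to 0.061 for CASP8, and PMAIP1 in total RNA from -0.15 to 0.013. For the difference of the effects, each fit without 1 library kept the other library of its culture, so that spread between cultures enters it. The cause was not tested. Unknown depth and 3 cultures per vector limit what could be detected.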

Other observations

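The p53 target list, 15 genes fixed beside the cell death lists because PMAIP1 is one of p53's targets, is described here by its counts. In total RNA 4 of the 15 were higher and 3 lower without overlap between the vectors (11.9% and 15.4% of all genes were), in polysomal RNA 5 were higher and 3 lower (10.0% and 12.5% of all genes), and 0 passed the limma test, where 6 in total and 3 in polysomal RNA had an unadjusted p under 0.05. ZMAT3, an RNA-binding p53 target, differed by -0.49 (SE 0.14) in total RNA and -0.42 (SE 0.16) in polysomal RNA. RRM2B, a ribonucleotide reductase subunit, differed by -0.30 (SE 0.085) in total RNA, and TP53INP1 by -0.29 (SE 0.088) in polysomal RNA. Among the higher genes, named after their values were seen, CDKN1A (p21) differed by 0.22 (SE 0.054) and PHLDA3 by 0.27 (SE 0.090) in total RNA. The list's median log2 difference was 0.078 in total and 0.072 in polysomal RNA.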
